A study of Drosophila melanogaster with 2 samples.

Results

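Distal intergenic peaks of the transcription factor Oli are described here. They are the peaks of the irreproducible discovery rate (IDR) list whose summit lies outside every annotated gene body, more than 5000 bp from the start of the nearest protein-coding transcript and more than 500 bp from the start of any gene named as a long non-coding RNA (lncRNA). The rule uses position and no measured value, and it took in 586 peaks and left 5910 others, a share of 9.02% of the list (95% exact Clopper-Pearson interval 8.34 to 9.74). The peaks come from chromatin immunoprecipitation and sequencing (ChIP-seq) of whole Drosophila melanogaster embryos of mixed sex, aged 6 to 18 h, in 2 biological replicates that form 1 group. Both replicates carry the same transgene, Oli tagged at its C terminus with green fluorescent protein (GFP), and chromatin sonicated to 200 to 800 bp was precipitated through the GFP. The labels name no promoter, driver or tissue for the transgene, whole embryos hold every cell type, and no second genotype, treatment or stage was sampled.

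Oli is an Olig protein, and Olig proteins are basic helix-loop-helix (bHLH) factors, which bind as dimers to the E-box CANNTG and are known in vertebrates and flies for their part in motor neuron development. Distal intergenic DNA can hold enhancers, which are stretches where transcription factors gather and act on a promoter some way off, often that of a developmental regulator flanked by long gaps without genes. The genes given below are the nearest coding genes by start site, and whether a peak acts on that gene was not measured.

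The sequences of 6 distal summits are shown first, because 5 letters found beside the summit are the pattern the results turn on. Each is 281 bp of the plus strand of the RefSeq release 6 genome (the dm6 assembly), centred on the summit. Capitals mark CACTG, its reverse complement CAGTG, and every E-box. The first is the highest distal peak of its arm, and the others were chosen after their sequences were seen: 4 because the letters stand on both sides and read towards the summit, and the last because it lies at Oli itself.
chinmo, 12473 bp upstream of the start, chr2L:1638645-1638925: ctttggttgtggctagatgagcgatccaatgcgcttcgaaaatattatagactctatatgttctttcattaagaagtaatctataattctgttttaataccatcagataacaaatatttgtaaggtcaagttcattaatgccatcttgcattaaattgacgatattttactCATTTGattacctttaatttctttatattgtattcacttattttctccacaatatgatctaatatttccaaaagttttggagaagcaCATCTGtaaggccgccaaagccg
noc, 11897 bp downstream of the start, chr2L:14502616-14502896: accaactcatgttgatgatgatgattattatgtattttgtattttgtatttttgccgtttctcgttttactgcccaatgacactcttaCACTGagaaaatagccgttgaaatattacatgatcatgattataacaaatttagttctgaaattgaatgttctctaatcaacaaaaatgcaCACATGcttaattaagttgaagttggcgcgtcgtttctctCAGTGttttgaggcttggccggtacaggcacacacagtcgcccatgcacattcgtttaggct
Doc2, 6678 bp upstream of the start, chr3L:9025784-9026064: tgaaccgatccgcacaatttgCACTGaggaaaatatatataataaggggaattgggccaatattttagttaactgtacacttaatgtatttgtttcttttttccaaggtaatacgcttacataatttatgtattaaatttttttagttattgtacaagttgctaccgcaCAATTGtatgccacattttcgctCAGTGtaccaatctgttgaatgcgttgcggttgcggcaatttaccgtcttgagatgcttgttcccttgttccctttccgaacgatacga
SrpRbeta, chr3L:8700713-8700993: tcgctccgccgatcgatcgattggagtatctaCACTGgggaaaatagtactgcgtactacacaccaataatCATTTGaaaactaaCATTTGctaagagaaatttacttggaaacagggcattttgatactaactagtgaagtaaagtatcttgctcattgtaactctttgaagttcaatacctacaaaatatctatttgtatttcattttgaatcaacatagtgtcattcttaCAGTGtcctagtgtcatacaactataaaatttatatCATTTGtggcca
CG7560, chr3L:11417642-11417922: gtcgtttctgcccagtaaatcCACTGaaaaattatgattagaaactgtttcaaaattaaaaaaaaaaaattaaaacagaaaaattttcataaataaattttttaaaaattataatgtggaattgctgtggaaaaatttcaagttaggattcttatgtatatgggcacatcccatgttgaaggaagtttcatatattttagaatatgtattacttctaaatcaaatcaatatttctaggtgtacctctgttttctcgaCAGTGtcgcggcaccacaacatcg
Oli, 6024 bp upstream of the start, chr2L:17583020-17583300: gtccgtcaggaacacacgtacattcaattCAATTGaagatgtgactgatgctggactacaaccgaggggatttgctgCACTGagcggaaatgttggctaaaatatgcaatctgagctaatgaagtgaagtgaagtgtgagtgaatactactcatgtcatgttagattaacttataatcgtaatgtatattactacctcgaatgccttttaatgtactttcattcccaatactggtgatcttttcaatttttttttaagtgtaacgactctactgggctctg
In the noc, Doc2, SrpRbeta and CG7560 peaks a CACTG left of the summit faces a CAGTG right of it, so that both read towards the AT-rich middle. They stand 50 bp to the left and 81 bp to the right of the summit at noc, 117 and 54 bp at Doc2, 106 and 95 bp at SrpRbeta, and 117 and 119 bp at CG7560. The Oli peak has 1 CACTG, 61 bp left of the summit, and 1 E-box. Weaker distal peaks at Oli, not printed here, hold 0 matches to CACTG or CAGTG in their 281 bp. The chinmo peak has 0 of the 5-letter matches and 2 E-boxes. The numbers that follow ask how general each of these layouts was.

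Distal peaks were mostly low peaks of the list. Signal here means the peak height in the authors' files, which carries no stated unit and serves only to describe and rank peaks within a list. Distal peaks had a median signal of 247.5 (lowest 155.1, highest 4935), against a median of 301.4 over the 5910 other IDR peaks. The stronger 50% of the IDR list held 212 distal peaks, a share of 6.53%, and the weaker 50% held 374 (11.5%), a difference of -4.99 percentage points (Fisher's exact test, two-sided, p = 2.33e-12). In other terms 36.2% of distal peaks were among the stronger ones, where 50% of all IDR peaks are by construction. Each replicate's list, kept to as many of its strongest peaks as the IDR list has, gave the same order, with differences of -4.65 points in replicate 1 and -3.85 points in replicate 2.

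The distal share grew with every step down the ranks. It was 2.6% (13 of 500) at ranks 1 to 500, 6.2% from there to rank 1000, and 6.4% between ranks 1001 and 2000. It reached 9.45% between ranks 2001 and 4000 and 11.6% (289 of 2496) from rank 4001 on. Replicate 1 gave 2.0% and 12.1% in the first and last of these bins, and replicate 2 gave 3.4% and 10.7%. Below the IDR threshold, the pooled list held 12.1% distal peaks from rank 6497 to rank 10000 and 15.3% from rank 20001 to rank 30000. Read numbers were not part of the material, which leaves the depth unknown, and intervals cover counting error over peaks only. P-values are over peaks of these libraries, not over embryos.

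**Figure D1:**
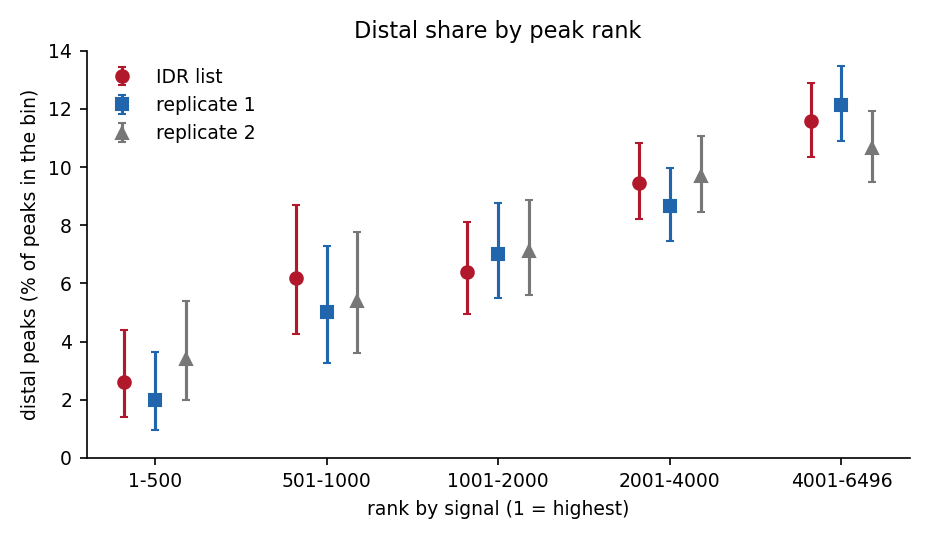
Distal peaks as a percent of all peaks (vertical axis) in 5 bins of rank by signal (horizontal axis) for the IDR list and for as many of the strongest peaks of each replicate, with exact 95% binomial intervals as bars. In all 3 lists the lowest point is at ranks 1 to 500 (2.6%, 2.0% and 3.4%) and the highest from rank 4001 on (11.6%, 12.1% and 10.7%).

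A few distal peaks were among the highest of the experiment. The highest lay on 2R (13035138 to 13035543), 11904 bp downstream of the start of the uncharacterised gene CG13323. Its pooled signal was 4935, with 2395 in replicate 1 and 2555 in replicate 2. The gap that holds it is bounded on the other side by Su(z)2, a Polycomb group gene, and held 5 distal peaks. The fourth highest, nearest to CG13321 on 2R, lay in a gap that ends at Psc, the Polycomb group gene next to Su(z)2, and had a signal of 1935, with 1284 in replicate 1 and 614.0 in replicate 2. The scales of the replicates were not set against each other, so these values are not compared between replicates.

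The distal peaks at ranks 2, 3 and 6 stood upstream of chinmo, which encodes a BTB zinc finger protein of temporal identity in neurons. Their pooled signals were 3455, 2052 and 1580. The first had 2199 in replicate 1 and 1271 in replicate 2, the second 1173 and 879.5, and the third 772.3 and 807.8. The chinmo peaks thus kept their order in both replicates. Together with 4 weaker peaks they made up the 7 distal peaks of the gap between RFeSP and chinmo.

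The remaining genes nearest to the 15 highest distal peaks were CG43245, CG7560, CG13898, CG14147 and CG5103, which are named only by number, and Ids, Reg-2, scyl and noc. Ids encodes a lysosomal sulfatase and scyl a growth inhibitor. The highest CG43245 peak (3L, 10752525 to 10752950) had a pooled signal of 1737, with 917.3 in replicate 1 and 824.0 in replicate 2. The noc gene encodes a zinc finger protein, and its highest peak (2L, 14502635 to 14502898) had 1063, with 510.9 and 556.5. Over all members the median was 135.2 in replicate 1 (586 peaks) and 119.5 in replicate 2 (585 peaks), scales that were not set against each other.

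**Figure D2:**
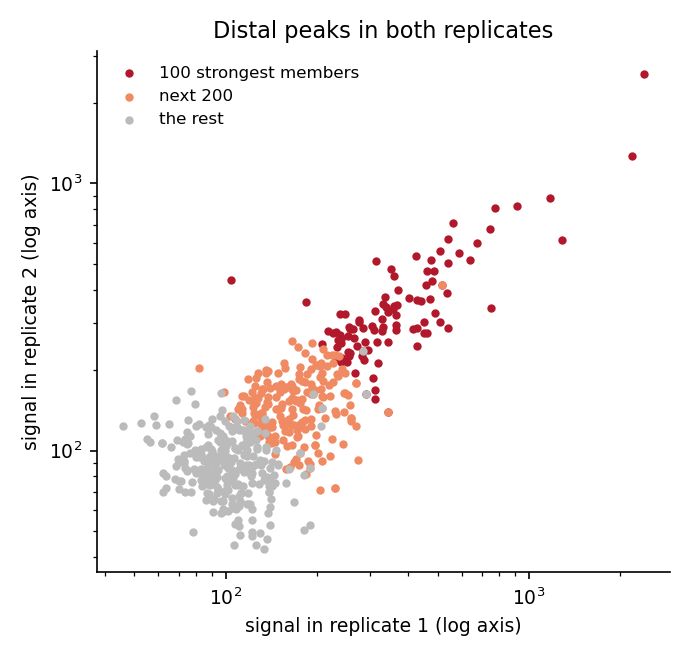
Signal of each distal peak in replicate 1 (horizontal, log axis) and replicate 2 (vertical, log axis), for the 585 members found in both, coloured by their order of pooled signal. The points follow 1 band with a Spearman's rho of 0.684, and the 100 strongest members lie at its upper end.

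All distal peaks but 1 were found in both replicates. Replicate 1 overlapped 586 of 586 and replicate 2 overlapped 585, with median summit shifts of 20 bp and 17 bp. High overlap follows from the way an IDR list is made. With each replicate's list kept to the length of the IDR list, 454 distal peaks (77.5%, 73.9 to 80.8) were in both lists, 125 in 1 of them and 7 in none. Over all IDR peaks the share in both was 82.3%, and over the non-distal ones it was 82.8%, a difference of -5.32 points for distal peaks (Fisher's exact test, two-sided, p = 0.00177).

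Within bins of pooled rank the difference was not seen. From rank 4001 on the share in both was 55.4% of distal and 56.0% of other peaks (Fisher's exact p = 0.850), and between ranks 2001 and 4000 it was 98.4% and 97.7% (p = 0.794). Across the 585 members in both replicates Spearman's rho of the signal was 0.684, and it was 0.809 over the other IDR peaks. Both are correlations across peaks of 2 lists made with 1 shared control, and distal peaks cover a narrower range of signals. Most distal peaks had 1 width: 470 (80.2%) were 416 bp wide. That width was usual in the whole list. In the other classes its share ran from 66.4% at start sites to 77.9% in introns more than 5 kb from a start.

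Many distal peaks shared a gap between genes. The 586 peaks lay in 277 gaps, 425 of them (72.5%) shared a gap with another distal peak, and 29 gaps with 5 or more held 190. The fullest was the gap between hng3 and CG13898 on 3L, with 14 distal peaks in 47.9 kb. The next were CG7320 to CheA75a with 11, NijA to CG43245 with 10 and vvl to Prat2 with 10, all on 3L. The gaps on both sides of noc held 6 each.

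Close pairs were not more common than elsewhere. Another IDR summit lay within 1 kb of 111 distal peaks (18.9%, 15.8 to 22.4), against 22.2% of the other IDR peaks and 21.9% of all (Fisher's exact test, two-sided, Benjamini-Hochberg over 3 classes, adjusted p = 0.133). Of the 609 nearer intergenic peaks 140 had one (adjusted Fisher's exact p = 0.133) and peaks in introns more than 5 kb from a start had 17.9% (adjusted p = 0.597). Within 2 kb the distal share was 32.3% and that of the others 39.7%, a difference that passed (adjusted Fisher's exact p = 7.73e-04).

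The distal territory, meaning every base that meets the rule, is 20.8 Mb and held 28.2 distal peaks per Mb (25.9 to 30.6, exact Poisson). Replicates 1 and 2 gave 27.9 and 27.7 per Mb. Intergenic sequence within the 5 kb limit, leaving out bases up to 500 bp from any start, held 51.5 peaks per Mb. Without the centromere ends described below the distal value was 41.5, and the nearer one was not worked out without them. By arm, 2L had 37.6 per Mb (31.5 to 44.4), 3L 35.5, 3R 27.4, X 20.6 and 2R 16.6 (13.0 to 21.0). This order rests on territory at the centromere ends of the arms that held no distal peak, and without it 3L had 61.2 per Mb (53.0 to 70.2), 2L 46.6 (39.2 to 55.1), 2R 42.9 (33.4 to 54.2), 3R 36.0 (29.7 to 43.2) and X 20.6 (15.8 to 26.3). On 2R 61.2% of the territory lay there. X lost none to this rule, because its last bin held 1 distal peak in 0.727 Mb, and without that bin as well X had 26.6 per Mb (20.4 to 34.2). Chromosome 4 had 1 distal peak, with a signal of 837.8.

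Density by distance depended on the same ends. Over all territory it was 37.2 per Mb of territory at 5 to 7.5 kb from a coding start, 40.7 at 7.5 to 10 kb, 43.1 at 10 to 20 kb and 17.7 at 20 to 80 kb. Beyond 80 kb there were 0 peaks in 3.43 Mb, which by the exact Poisson interval allows up to 1.08 per Mb. Without the ends the values were 39.5, 44.5, 50.3 and 36.0 per Mb (29.1 to 44.0 for the last), and beyond 80 kb 0 peaks in 0.700 Mb allow up to 5.27 per Mb. Members stood 5013 to 72244 bp away, with a median of 10929 bp.

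The ends were taken as the 2-Mb bins up to the first bin with a distal peak, which are 22 to 23.5 Mb on 2L, 0 to 6 Mb on 2R, 24 to 28.1 Mb on 3L and 0 to 4 Mb on 3R. In them 0 distal peaks fell in 6.68 Mb of territory (32.1% of it), as did 0 in each replicate. Peaks of any class were rare there too, with 6 IDR peaks, and the pooled list of 30000 had 15 of its 4003 distal peaks (0.375%) there. The rest of the territory held 41.5 distal peaks per Mb. These bins were chosen after their counts were seen, and the part that repeats and unmappable sequence have in it was not tested.

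**Figure D3:**
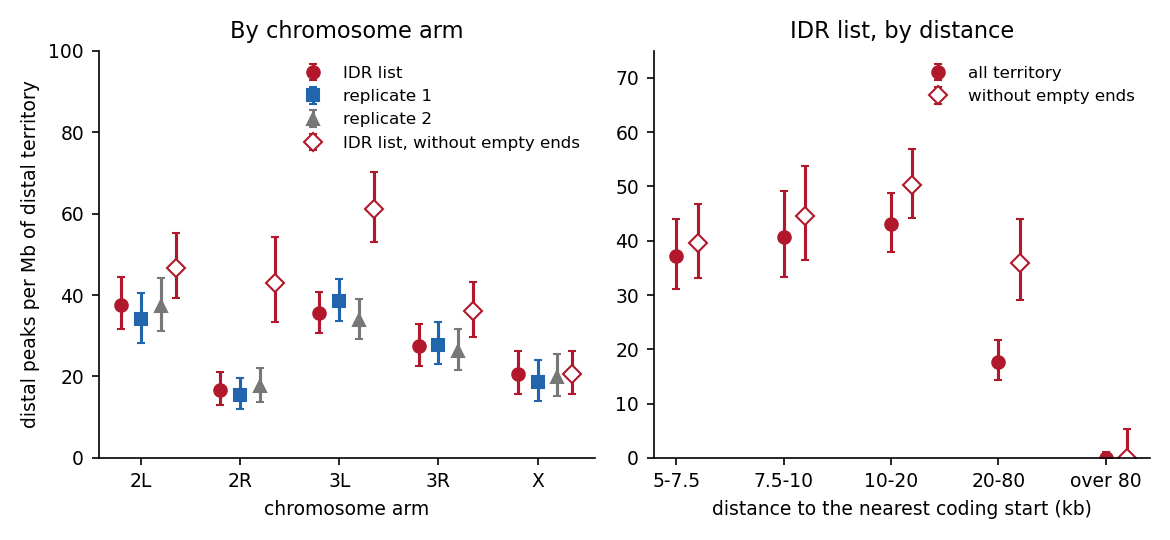
Distal peaks per Mb of distal territory (vertical axes) on each large chromosome arm for the IDR list and both replicates (left), and by distance to the nearest coding start for the IDR list (right), with exact 95% Poisson intervals; open diamonds leave out the empty bins at the centromere ends. Over all territory 2R is lowest (16.6), and without the ends it has 42.9, while at 20 to 80 kb the density is 17.7 over all territory and 36.0 without the ends.

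Distal peaks took no clear side of their nearest gene. Upstream of it lay 318 (54.3%, 50.1 to 58.4), and 53.7% of the territory is upstream. Gaps between genes read apart held 154, gaps between genes read in 1 direction 288 and gaps between facing genes 144. An lncRNA start lay within 2 kb of 65 members (11.1%). How much of the territory lies in each kind of gap, or that near to an lncRNA start, was not worked out. These counts thus have no background and do not set distal peaks apart. The rule does not bar other non-coding starts, and 3 members were within 500 bp of one: snoRNA:185 at 93 bp, snRNA:U6:96Ac at 164 bp and tRNA:Gly-TCC-2-2 at 260 bp.

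The limit of 5000 bp cut through a continuous set. Just inside it stood peaks at CG13171 (5013 bp, signal 163.0), CG12523 (5056 bp, 256.3) and CG31689 (5092 bp, 164.5). Just outside stood those at Gr93b (4988 bp, 291.4), tei (4987 bp, 239.5) and exex (4956 bp, 266.3). The 3 farthest members were at 72244 and 63948 bp from Cyp12e1, in the gap between Cyp12e1 and the homeodomain gene hth, and at 60330 bp from the purine synthesis gene Prat2, in the gap between vvl and Prat2. Their pooled signals were 247.4, 239.7 and 841.6. The Prat2 peak had 471.3 in replicate 1 and 368.7 in replicate 2.

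Distal summits were AT-rich, with a rim of higher GC content around them. The sequence within 50 bp of the summit averaged 30.5% GC (SD 7.59, 586 peaks), against 43.3% (SD 9.31) in an equal window centred 500 bp to the right and 42.9% to the left. GC content was lower at the summit in 494 peaks (84.3%, 81.1 to 87.2; exact sign test, two-sided, p = 1.08e-72), and in 80.4% and 84.5% of distal peaks of replicates 1 and 2. This is a trait of the whole list, with 82.9% in the other IDR peaks (Fisher's exact test, two-sided, adjusted over 3 classes, p = 0.629). Under 30% GC were 53.4% of distal summits and 14.2% of 199888 tiles of the same width that cover the distal territory.

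The rim was more marked at distal peaks than in the rest of the list. At 280 bp on both sides GC content averaged 46.9% (SD 6.65), which is 5.89 points above that at 1 kb (SD 6.78; 5.94 and 6.05 in replicates 1 and 2). It was higher at 280 bp than at 1 kb in 73.7% of distal peaks and in 60.2% of the others (Fisher's exact test, two-sided, adjusted p = 1.99e-10). Nearer intergenic peaks had 64.5% (adjusted Fisher's exact p = 0.00107), deep intronic peaks 71.5% (adjusted p = 0.333), and peaks at start sites 49.9% (not tested). The 2 distances were chosen after the profile was seen.

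**Figure D4:**
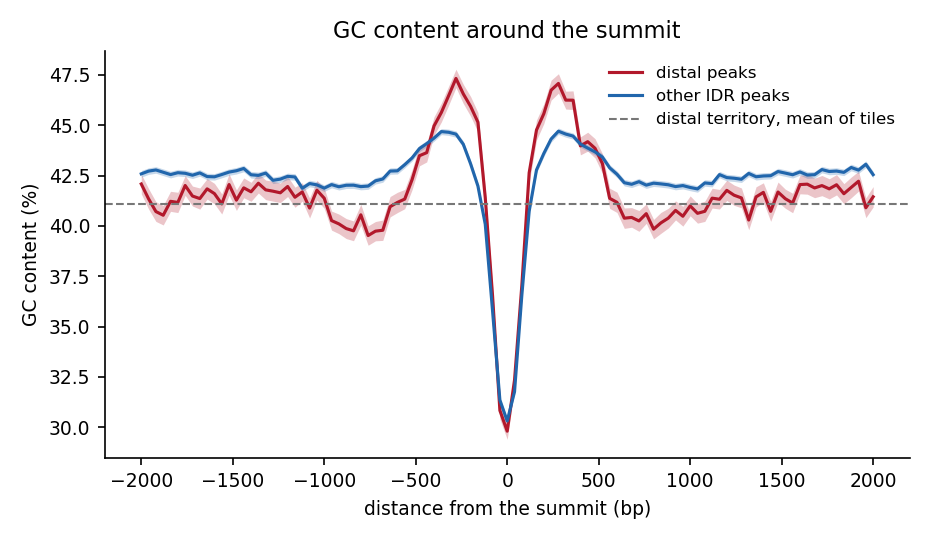
Mean GC content in percent (vertical axis) in 41-bp windows by distance from the summit (horizontal axis) for distal peaks and the other IDR peaks, with standard errors over peaks as bands and the mean of distal tiles (41.1%) as a dashed line. Both curves dip at the summit, and the distal curve has the higher rim on both sides of it.

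Of the motifs of the panel that were more frequent at the summit, all but CACTG consist of A and T. Of 20 motifs, 4 were more frequent within 50 bp of distal summits than in the flank on the right, and 5 were rarer there (exact McNemar test, two-sided, Benjamini-Hochberg over the panel). Over all IDR peaks 30% of the panel was more and 45% less frequent, so these counts do not set distal peaks apart. Fewer passed in the distal peaks of 1 replicate, with 3 more and 3 less in replicate 1 and 2 more and 2 less in replicate 2. The Mef2-like TANNNNTA, each N an A or a T, stood at 26.8% of the summits against 10.6% of the flanks (exact McNemar test, adjusted p = 2.96e-12), and in 28.5% of tiles of the same GC content. The A run AAAAAA was at 28.7% and 17.6% (adjusted exact McNemar p = 1.10e-04; 33.3% of such tiles), and the homeodomain core TAATTA at 68 summits and 41 flanks (adjusted p = 0.0288; 13.2%). TAATTA passed in neither replicate alone (adjusted exact McNemar p = 0.286 and 0.360), and the other pair passed in both. All motifs were searched on both strands, matches of different motifs may overlap, and a match is not a site.

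E-boxes were fewer at distal summits than in their flanks. At least 1 was found at 189 summits (32.3%) and 257 flanks (43.9%; exact McNemar test, two-sided, p = 4.46e-05), and in 28.8% of tiles of the same GC content. Of the 10 classes, 0 were more frequent, with 0 also at an unadjusted p under 0.05, and 3 less frequent. CAACTG was at 22 summits and 45 flanks (adjusted exact McNemar p = 0.0197), CAGATG at 14 and 31 (adjusted p = 0.0358) and CAGCTG at 7 and 21 (adjusted p = 0.0314). The summit shares were 3.75%, 2.39% and 1.19%, and tiles of the same GC content had 3.89%, 2.74% and 1.59%. None of the 3 passed in both replicates, where the distal sets were called anew. Over all IDR peaks these 3 and further classes were less frequent too, so this does not set distal peaks apart. There CAACTG was at 3.89% of summits and 6.56% of flanks, CAGATG at 2.83% and 4.48%, and CAGCTG at 2.28% and 4.59%. CATATG, the class that mammalian Olig proteins prefer, was at 22 summits and 18 flanks (adjusted exact McNemar p = 0.795).

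The pair GAGAG and CACACA, both simple repeats, was less frequent at summits as well, at 7.51% against 13.3% and at 5.12% against 9.90% (adjusted exact McNemar p = 0.0118 each). Tiles of the same GC content held them at 6.81% and 5.25%, near the shares at the summit. In replicate 2 alone neither passed (adjusted exact McNemar p = 0.297 and 0.0868). The 5-letter CACTG was at 17.7% of summits and 11.6% of flanks (adjusted exact McNemar p = 0.0118), but at 1.02 points more, and not past the test, with the flank to the left (adjusted p = 0.806) and at 1.91 points more in replicate 2 alone (adjusted p = 0.566). Against tiles of the same GC content it had the highest fold of the panel, 1.88-fold, while the other 3 that were more frequent stood at 0.860 to 0.942-fold. Distal summits did not differ from nearer intergenic or deep intronic ones in any of the 20 motifs: 0 of 40 tests passed (0%), with 0 at an unadjusted p under 0.05 and a lowest p of 0.0786 (Fisher's exact test, two-sided).

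Among all strand-collapsed hexamers, 243 were more and 432 less frequent at distal summits than in the flank (exact McNemar test, Benjamini-Hochberg), where 25.7% and 55.7% of hexamers were so over all IDR peaks. Distal peaks are fewer, which makes fewer calls by construction. ATATAA led, at 29.5% of summits and 7.17% of flanks, and of the more frequent hexamers each of the 15 with the lowest p had at most 1 G or C. GCCAGC led the other way, at 0.683% and 9.73%. Against tiles of the same GC content the first of all hexamers by fold was CAGTGC, which holds the 5 letters, at 8.19% of summits and 2.45% of tiles (3.35-fold, a description with no test).

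The 5 letters were most frequent not at the summit but to both sides of it. Windows reaching 50 bp to either side of the points 100 bp left and right of distal summits held CACTG or CAGTG in 39.4% and 38.9% of peaks, against 17.7% at the summit, 16.7% and 11.6% at 500 bp to the left and right, and 13.7% and 14.1% of tiles of the same GC content. In at least 1 of the 2 windows beside the summit it was found in 352 peaks (60.1%, 56.0 to 64.1), against 149 (25.4%) in the 2 windows at 500 bp. That is 2.36-fold (exact McNemar test, two-sided, adjusted p = 4.11e-29 over the panel). On both sides it was found in 107 peaks (18.3%), against 17 (2.90%) at 500 bp. These windows were chosen after the profile was seen.

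Both replicates showed it in distal summits called anew. In at least 1 window beside the summit it was found in 51.1% of distal peaks of replicate 1, against 26.7% at 500 bp, and in 61.4% of distal peaks of replicate 2, against 25.2%. It was no trait of strong members alone, at 65.0% of the 100 strongest, 59.5% of the next 200 and 58.7% of the rest, intervals of which overlap. By arm it ran from 54.8% on 3R to 74.2% (46 of 62) on X. Members with it had a median signal of 248.5 and members without it 244.6.

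Of the 20 panel motifs, 3 were more and 0 less frequent beside distal summits than at 500 bp, where 35% and 25% were over all IDR peaks (exact McNemar test; 1 was less frequent at an unadjusted p under 0.05). The other 2 were TANNNNTA, at 30.7% and 20.6%, and AAAAAA, at 47.3% and 36.0% (adjusted exact McNemar p = 0.00122 each). Of all hexamers, 89 were more and 36 less frequent beside the summit, against 25.1% and 45.2% over all IDR peaks. CAGTGC again led, in 26.6% of peaks beside the summit and 6.31% at 500 bp (4.22-fold, adjusted exact McNemar p = 7.73e-17). AGTGCA (31.9% and 10.1%) and CACTGA (26.5% and 7.34%) followed, and 6 of the 8 hexamers that hold the 5 letters passed.

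The letters also had a direction. Read as CACTG, 359 matches at 50 to 150 bp from distal summits ran towards the summit and 191 away from it, or 65.3% towards. Replicates 1 and 2 gave 66.2% and 68.1%. At 200 to 300 bp the matches were fewer and nearer to even, with 122 towards and 104 away. Matches towards the summit stood a median of 92 bp from it (quartiles 61 and 128 bp, 504 matches within 200 bp).

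Per peak, counting matches whose centre lay 50 to 150 bp from the summit, which may reach past the edge of the windows, 208 distal peaks had matches towards the summit only, 102 away from it only and 48 both kinds. In 72 (12.3%) a match towards the summit stood on each side, as in the noc, Doc2, SrpRbeta and CG7560 sequences above, and the innermost pair was then a median of 172.5 bp apart (quartiles 155 and 199.5 bp). The same layout was found in 9.47% of distal peaks of replicate 1 and 14.6% of those of replicate 2.

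**Figure D5:**
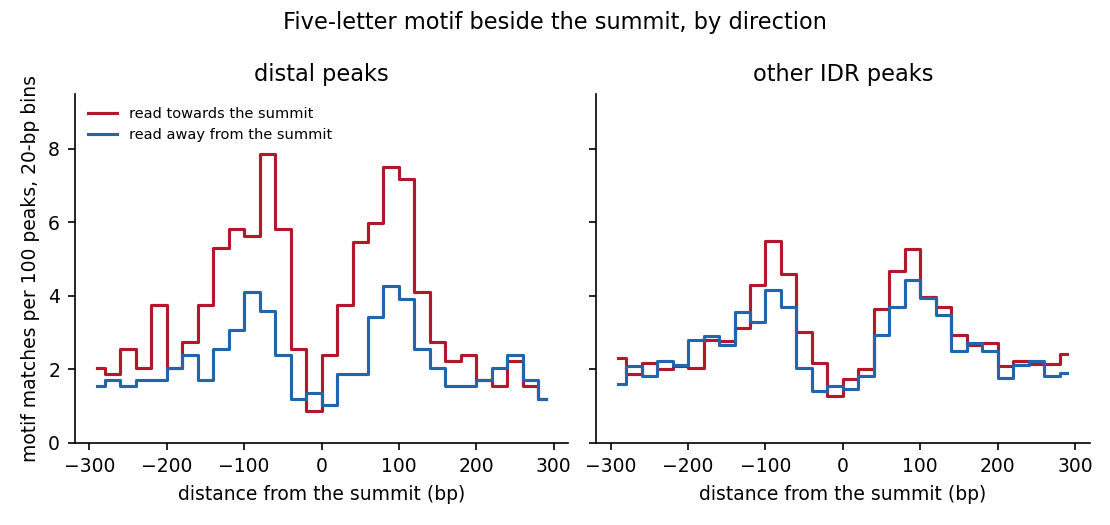
Matches to CACTG per 100 peaks in 20-bp bins (vertical axis) by distance from the summit (horizontal axis), split by whether the motif reads towards or away from the summit, for distal peaks (left) and the other IDR peaks (right). In distal peaks the curve read towards the summit stands above the other on both sides between 50 and 150 bp, where 359 matches read towards and 191 away.

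In the IDR list, distal peaks had the letters beside the summit more often than the rest. Non-distal peaks were not counted within each replicate, so the difference rests on the IDR list alone. The share of 60.1% compares with 52.1% of the other IDR peaks, a difference of 7.92 points (Fisher's exact test, two-sided, adjusted over 3 classes, p = 7.91e-04). It was not shown to differ from nearer intergenic peaks (57.6%, adjusted Fisher's exact p = 0.411) or deep intronic peaks (55.3%, adjusted p = 0.0949). The share of matches that read towards the summit was 65.3% in distal, 64.4% in nearer intergenic, 58.8% in deep intronic and 52.0% in nearer intronic peaks, and 48.3% at start sites, figures with no test between them.

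The bases around the matches that read towards distal summits were uneven too. Counting the first C of CACTG as position 0, 68.8% of the 359 had T at position -2 and 87.2% had A or G at position -1. After the motif, A stood at position 7 in 67.1%, at position 9 in 73.8%, at position 10 in 78.6% and at position 11 in 73.8%. Of the 191 that read away from the summit 23.6% had A at position 10, and of the 122 that read towards it from 200 to 300 bp 30.3% did. Those that read away were uneven in other places, with T at position 5 in 57.6%, C at position -1 in 47.1% and C at position -2 in 38.2%. Around the 359, no base exceeded 40.7% from position 12 on or before position -2.

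The most frequent bases were joined into a pattern of 14 letters with 10 fixed, TNCACTG followed directly by NNANAAA. Its letters were read from these same peaks, so the counts are a description. Towards the summit at 50 to 150 bp it was found in 102 distal peaks (17.4%, 14.4 to 20.7), and away from it in 1. Replicate 1 had it in 82 (14.1%) and 2, and replicate 2 in 112 (19.5%) and 1. The share with it towards the summit was 15.8% in nearer intergenic peaks, 13.1% in deep intronic peaks, 8.53% in nearer intronic peaks and 4.26% at start sites. In the other IDR peaks 539 matches read towards and 6 away from the summit.

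Matches to the pattern were also counted over the whole territory. The distal territory holds 753 matches, of which 133 (17.7%) lay within 150 bp of an IDR summit, while 0.844% of the territory does. The pattern was read from distal summits of this list, beside which 108 matches read towards the summit and 1 away. A high share near these summits was therefore built in, and the contrast is no test. With the whole pooled list of 30000 peaks 337 matches (44.8%) lay as near to a summit. The share of the territory that near to a summit of this longer list was not worked out. The 0.844% is for IDR summits only and is no background for it. Of the tiles of the distal territory 0.260% hold the pattern. The factor that binds these letters, if any, is not named by the data.

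Genes nearest to distal peaks were 337 of 13945 coding genes (2.42%). Only genes beside long gaps can be among them: 2021 have any distal territory, and 16.7% of those had a distal peak. Counts for gene lists are therefore given beside peaks per Mb of the territory tied to the list, where all coding genes gave 28.2, or 41.5 without the centromere ends. The most distal peaks belonged to CG43245 with 12 (13 and 12 in replicates 1 and 2), hng3 with 9, and CG13898 and vvl with 8 each (11 and 6 for vvl). Next came noc and CheA75a with 7 each, and Ids, Reg-2, CG6163 and corto, a chromatin protein gene, with 6 each.

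Oli had 3 distal peaks, all between genes on 2L and upstream of its start. The one at 6024 bp had a pooled signal of 803.3, with 371.3 in replicate 1 and 398.4 in replicate 2. The one at 10909 bp had 288.8, with 172.3 and 112.1, and the one at 15880 bp had 240.0, with 127.0 and 103.1. All 3 were thus found in both replicates, in the same order. Whether copies of this sequence in the transgene add to the signal here was not tested.

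Of the 15 genes on the motor neuron and Olig-linked list, 5 were nearest to a distal peak, with 9 peaks (7 in replicate 1 and 11 in replicate 2), or 118 per Mb (53.8 to 223). Oli is 1 of the 5 and holds 3 of the 9 peaks, and the value of the list without Oli was not worked out. The LIM homeodomain gene tup, a motor neuron identity gene, had 3, the highest of them 18214 bp upstream with a signal of 466.6 (232.7 in replicate 1 and 243.3 in replicate 2). The homeodomain genes exex, the fly HB9, and ftz, a pair-rule gene, had 1 each, with signals of 211.5 and 175.1.

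Other lists of developmental regulators had nearest genes at shares above the 2.42% of all coding genes, as did some lists given further below, such as neuronal recognition genes (12.7%). Most coding genes have no distal territory and cannot be nearest. Of all coding genes with territory 16.7% had a peak, against 39.5% of homeobox, 42.1% of neuroblast and temporal identity and 26.7% of muscle and mesoderm genes. Neuronal recognition genes with territory had 24.4%. Territory per gene differed as well, with a median of 4.07 kb over all coding genes that have any. The median was 8.99 kb on the homeobox, 11.4 kb on the neuroblast, 4.63 kb on the muscle and 12.1 kb on the recognition list. These shares were not compared at equal territory. Homeobox factors had 15 of 63, with 29 peaks or 53.2 per Mb (35.6 to 76.3), and 71.5 (47.9 to 103) without the centromere ends. Their highest peaks were at eyg (768.7), ems (636.0), oc (611.9) and Awh (547.3). Neuroblast and temporal identity factors had 8 of 32, with 17 peaks or 71.2 per Mb (41.5 to 114). The lower limit is about the 41.5 of all coding genes without the centromere ends. This list was led by chinmo, the T-box gene mid (771.0) and SoxN (465.7). Among the muscle and mesoderm factors 4 of 30 had 8 peaks or 92.0 per Mb (39.7 to 181), and 97.9 (42.3 to 193) without the ends. The highest was at the T-box gene Doc2, with 938.2, and 463.4 in replicate 1 and 469.1 in replicate 2. The gap between Doc2 and its neighbour Doc1 held 5 peaks.

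Patterning and signalling genes were nearest to many as well. Of genes with territory, 43.5% had a peak on the gap, pair-rule and segment polarity list. It was 40.9% on the signalling list and 33.3% on the gut, trachea, blood and epidermal list. Median territory per gene was 9.16, 8.06 and 8.26 kb on these lists, against 4.07 kb over all coding genes with any. Gap, pair-rule and segment polarity genes had 10 of 30, with 22 peaks or 81.6 per Mb (51.1 to 124). They were led by ptc, the Hedgehog receptor gene, at 917.7 (423.6 in replicate 1 and 534.4 in replicate 2). Signalling ligands and receptors had 9 of 47, with 14 peaks or 83.3 per Mb (45.5 to 140). The Wnt ligand gene wg, a member of both lists, had 3, up to 648.2 (363.6 and 294.3), and the JAK/STAT ligand gene upd1 had 1 of 536.5. Gut, trachea, blood and epidermal factors had 6 of 29, with 15 peaks or 61.6 per Mb (34.5 to 102). Replicates 1 and 2 gave 21 and 12 peaks, or 86.3 and 49.3 per Mb. Without the centromere ends this list had 62.3 per Mb (34.9 to 103), and that interval takes in the 41.5 of all coding genes. The POU homeodomain gene vvl led it at 710.5 (358.5 and 347.6).

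The remaining lists had few peaks, little territory or values that moved by over 1.5 times between settings, and some lists above share these limits. The motor neuron list had 0.0765 Mb of territory and the muscle list 0.0869 Mb, less than the 0.0903 Mb of the axon guidance genes. Neuronal recognition genes had 10 of 79, with 19 peaks or 20.9 per Mb (12.6 to 32.7), and without the centromere ends 35.7 (21.5 to 55.8). Axon guidance genes had 2 of 36, with 2 peaks or 22.2 per Mb (2.68 to 80.04), and replicates 1 and 2 had 5 and 4 peaks, or 55.4 and 44.3 per Mb. Synapse and channel genes had 2 of 41, with 3 peaks or 44.5 per Mb (9.18 to 130.1), and 29.7 in each replicate. Ecdysone response genes had 1 of 20, with 3 peaks in 0.0241 Mb or 124.7 per Mb (25.7 to 364), and 83.1 in each replicate. Among bHLH factors 1 of 38, hry, had 3 peaks or 65.4 per Mb (13.5 to 191). Smell and taste receptor genes had 3 of 180, with 3 peaks or 11.1 per Mb (2.29 to 32.5), and 7.42 and 18.5 in replicates 1 and 2. Glial genes had 0 of 17, but only 3 have territory, 0.0197 Mb in all, so that up to 188 per Mb is allowed. Cytoplasmic ribosomal protein genes had 0 of 85, in 0.213 Mb of territory, which allows up to 17.3 per Mb, or 61.2 without the centromere ends. Of genes with territory, 12.5% on the bHLH, 15.4% on the axon guidance and 7.69% on the smell and taste list had a peak. The synapse and channel list had 18.2% and the ecdysone list 16.7%. Lists share members and genes share gaps, and no test was run on the lists.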

How the data were processed

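Per the file notes, the authors deposited dm6 peak lists: 1 per replicate and 1 from the pooled replicates (30000 peaks each), and the IDR list of 6496, all made against 1 control. Aligner and peak caller: not given in the sources used here. Signal, as deposited, is the authors' height of a peak and served to rank peaks within a list. The deposited −log10 q-value was not used further. Summits were placed on the Ensembl release 115 annotation (BDGP6, version 54), with transposable elements counted as gene bodies, and on the RefSeq release 6 genome. Coordinates count from 1.

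The replicate lists were cut to their strongest 6496 peaks and classified anew. Windows were 101 bp wide, panel motifs numbered 20 and hexamers 2080. Tests were Fisher's exact, exact McNemar and exact sign tests, two-sided, with Benjamini-Hochberg adjustment and a threshold of 0.05, in Python 3.11.15 with numpy 2.4.6, pandas 2.3.3, scipy 1.17.1 and matplotlib 3.10.9. The McNemar tests and the Fisher's exact tests of panel motifs between classes were tried on simulated data. The sign tests and the other Fisher's exact tests were not. Shares of tiles at the same GC content were weighted in bins of 5 points. Of the symbols of 15 gene lists, 742 were found and 3 were not.

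Genes are named by a rule: the nearest coding gene of the 15 highest distal peaks seen in both replicates, the 10 genes with most distal peaks, those of the 3 farthest peaks, Oli, and at most 4 per list by signal, of which some are left out. Others are named for a gap, a limit or a printed sequence. The members, lists and tests were chosen with earlier results of these data known.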

Additional observations from a re-analysis of the deposited data

How the results depend on the processing

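Read numbers, control libraries and signal tracks were not analysed here, so depth limits every absence in an unknown way, and 2 replicates of 1 group give no spread between conditions. No paired analysis was possible because there is 1 group. The windows beside the summit, the GC rim, the handling of transposable elements and the densities without the centromere ends are alternatives chosen after seeing the data. With 1 replicate at a time, the distal share was 8.85 to 8.94% and the nearest genes 317 to 335, GC content was lower at the summit in 80.4 to 84.5% of distal peaks, and CACTG beside the summit exceeded 500 bp by 24.4 to 36.2 points. Panel motifs numbered 2 to 3 more and 2 to 3 less, and hexamers 201 to 239 more and 289 to 422 less.

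With the stronger 50% of the IDR list the distal share was 6.53%, the nearest genes 146, panel motifs 1 more and 0 less, and hexamers 49 more and 24 less. The recovery difference turned to 0.154 points (Fisher's exact p = 1). With 2 times as many peaks, from the pooled list, the share was 11.1% and the genes 575. Beyond 10000 bp the share was 5.28%, the genes 197, motifs 2 more and 0 less, and hexamers 146 more and 199 less. These settings change the number of peaks by construction. With flanks 500 bp to the left 3 motifs were less frequent, with flanks 1000 bp to the right 2 were more and 2 less, and within 25 bp of the summit 2 were more and 0 less, with 118 hexamers more and 134 less. The cause was not tested. Recovery differed by -3.20 points where 50% of both peaks had to overlap (Fisher's exact p = 0.112) and by -14.9 points where the set of strongest peaks of each replicate was limited to its stronger 50% (Fisher's exact p = 1.93e-12). The spacing difference was -2.94 points within 500 bp (adjusted Fisher's exact p = 0.0409) and -7.44 within 2 kb (adjusted p = 7.73e-04). Both genes flanking a gap gave 510 genes. For the 20 motifs against nearer intergenic and deep intronic peaks, 0 tests passed in all 7 alternatives. TANNNNTA passed, as did all E-boxes joined, in all 9 alternatives, and CACTG beside the summit in all 8.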

Other observations

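Further gaps with 5 or more distal peaks lay beside developmental genes that the text has not described, and they were picked after their counts were seen. The gap between dnc, which encodes a cAMP phosphodiesterase, and the growth regulator gene Myc on X held 6, with signals up to 567.0. The gap between the Wnt ligand genes Wnt4 and wg on 2L held 5, up to 648.2. The gap beside comm, an axon guidance gene on 3L, held 5, up to 502.8, in 79.9 kb. The gap beside Lim1, a LIM homeodomain gene on X, held 5 with signals of at most 195.7. The gap between Dip-B and tal-1A on 3R held 7, up to 874.0.

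Simple and repeated sequence, marked by soft-masking in the reference genome, was unevenly spread among distal summits. Over 50% of the bases within 50 bp of the summit were masked in 67 members (11.4%), and 148 (25.3%) had none masked. Over the whole distal territory 26.4% of bases are masked, and the mean at distal summits was 23.8%. The part that masked sequence has in any result was not tested.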
